A study of Nicotiana benthamiana with 12 samples.

Results

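The response of pent1 seedlings of Nicotiana benthamiana to abscisic acid (ABA) was described from 6 of the 12 RNA sequencing libraries of the series. N. benthamiana is a relative of tobacco and a common laboratory plant. The pent1 ABA group held 3 libraries of whole seedlings of the LAB strain labelled pent1, collected 3 h after the liquid medium was renewed with 10 µM ABA. The pent1 mock group held 3 libraries of pent1 seedlings given 0.1% DMSO, the solvent, for the same time. WT seedlings of the same strain received both treatments (3 libraries each) and are used only as a comparison. All seedlings were moved to liquid medium 10 days after germination and kept there for 10 days. Neither the gene altered in pent1 nor the origin of the line is stated in the labels. The design text calls the replicates independent and biological, without saying whether plants were pooled. The members were all genes that passed a filter on low counts in the 6 pent1 libraries, 33197 of the 45796 gene IDs in the tables. All 6 libraries were kept as separate replicates.

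ABA is the plant hormone of drought, salt stress and seed dormancy. Bound to its receptors, it blocks a family of protein phosphatases, which frees protein kinases to act on ion channels and on transcription factors of the bZIP family. In leaves and seedlings this closes stomata and switches on genes of water-loss tolerance, while genes of growth tend to be turned down. The files give gene IDs without names or products, so these pathways could not be traced gene by gene, the label of whole seedlings could not be checked against marker genes, and 4 genes are named by ID only. In whole seedlings, fewer cells of a type and less RNA per cell cannot be told apart. No sequence is printed, as no sequence of these IDs was at hand.

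The pent1 libraries held 19371555 to 19678708 counts, so depth differed little between the groups. Pent1 ABA replicate 3 stood apart. Libraries were set against each other by the share of counts that would have to move to another gene to make their compositions equal. This share was 5.65% between pent1 ABA replicates 1 and 2, but 9.25% and 7.81% between replicate 3 and replicates 1 and 2. It was 6.37% to 7.36% between mock libraries and 7.55% to 11.4% between ABA and mock libraries. The lowest of the ABA against mock values, 7.55%, belonged to ABA replicate 3 and mock replicate 2, and lay below both values of ABA replicate 3 within its own group. Treatment was still the main axis: the first principal component held 60.8% of the variance with all ABA libraries on one side (35.0 to 57.2) and all mock libraries on the other (-55.4 to -38.2), and the next held 14.6% and set ABA replicate 3 (-48.5) against the other 5 (0.178 to 27.0).

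**Figure D1:**
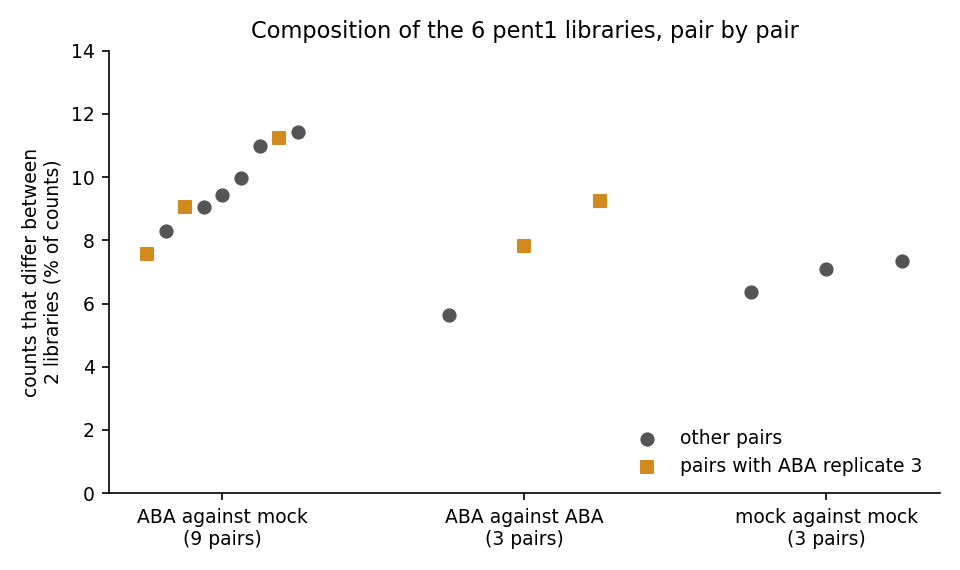
Share of counts (percent, vertical axis) that differ between 2 pent1 libraries, for the 9 pairs of an ABA and a mock library, the 3 ABA pairs and the 3 mock pairs. Each point is 1 pair, and squares mark pairs with ABA replicate 3, whose distances to the other ABA libraries (7.81% and 9.25%) lie within the range of ABA against mock (7.55% to 11.4%).

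Single genes showed the same. Among 28706 genes with an average log2 CPM of at least 1 (CPM are counts scaled to the TMM-adjusted library size), ABA replicate 3 lay at least 2-fold above both other ABA libraries for 81 genes and at least 2-fold below both for 117. The same counts were 10 to 24 above and 6 to 95 below for each of the other 5 pent1 libraries, with the 95 in mock replicate 3, and 2 to 14 above and 7 to 24 below for the 6 WT libraries. Of the 198 outlying genes of ABA replicate 3, 16 were called for ABA in pent1, where 11.1% of all genes tested were. These genes were chosen by a wide spread in the same libraries, which works against a pent1 call, so the count is a description. In WT, 53.3% of the outlying genes of ABA replicate 3 tested there were called for ABA, against 36% of all genes tested in WT. This share lay within the 29.5% to 80% found for the outlying genes of the other 5 pent1 libraries. The 11.1% and the 36% cover all genes tested, without the minimum on log2 CPM. Genes chosen in WT by their ABA response were also read in each pent1 ABA library. For 1546 of the genes raised at least 2-fold in WT (4.95% of genes tested there), the mean log2 change over pent1 mock was 1.40, 1.30 and 1.28 in pent1 ABA replicates 1, 2 and 3. For 691 of the genes lowered at least 2-fold in WT (2.25%) it was -0.82, -0.89 and -1.09, with replicate 3 the farthest from mock.

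ABA changed 3678 of the 33197 genes in pent1 (11.1%), by edgeR's quasi-likelihood test at a Benjamini-Hochberg adjusted p under 0.05. Of these, 2402 rose (7.24% of genes tested) and 1276 fell (3.84%), so 65.3% of the calls were increases. Scaling by library size alone gave 1912 higher and 2039 lower genes, 48.4% of them increases. At least 2-fold, 1014 rose (3.05%) and 380 fell (1.14%). The median log2 change over all genes tested was -0.01.

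Most of the changes were moderate. Of the genes that rose, 1089 (45.3%) had a log2 change of 0.5 to 1, 687 of 1 to 2, 261 of 2 to 4 and 66 (2.75%) of 4 or more. Of the genes that fell, 699 (54.8%) had a log2 change of 0.5 to 1 in size, 313 of 1 to 2, 62 of 2 to 4 and 5 (0.392%) of 4 or more. The long tail of large changes thus lay on the side of increases. Among genes tested, 7 had no count in any pent1 mock library, and all 7 were called higher, whereas none lacked counts in all 3 pent1 ABA libraries. A gene that passes the filter through 1 group alone had to differ between them, so these counts are a description.

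Increases were more frequent among abundant transcripts, where counts are also more precise, and decreases were not. With the genes in 10 classes of equal size by mean level over the 6 libraries, the share that rose was 5% in the lowest class (median 0.882 CPM) and 8.95% in the highest (median 93.0 CPM), with the peak of 9.67% in the class next to it. The share that fell peaked at 5.3% in the fourth class from below (median 6.10 CPM) and was 2.02% in the highest. The mean level includes the ABA libraries, so the response itself moves raised genes towards higher classes and lowered genes towards lower ones. Classes by mock level alone were not made. The genes that rose took 9.20%, 8.81% and 7.91% of all counts in pent1 ABA replicates 1, 2 and 3, against 4.68% to 5.14% in the pent1 mock libraries. The genes that fell took 1.63%, 1.67% and 1.68% in the ABA libraries, against 3.02%, 2.66% and 2.92% in the mock libraries. Neither pair of groups overlapped, but the genes were chosen on the same libraries and no test was made. ABA replicate 3 had the lowest share of raised genes of the 3 ABA libraries.

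The gain in CPM was spread over many genes. CPM are relative to the library size, so a gain in CPM is not an amount of added transcript. The genes that rose gained 41071 CPM in sum over mock, and 241 of them made up 50% of this gain, while the top 10 made up 6.35%. The genes that fell changed by -10722 CPM in sum, 166 of them made up 50% of the loss, and the top 10 made up 13.0%. No single gene thus dominated either direction: the largest gain was 0.785% of the total and the largest loss 2.73%.

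NbL12g09520 had the largest gain in CPM among genes called with and without any single library and with no overlap between the groups. It stood at 561.4, 512.8 and 474.7 CPM in pent1 ABA libraries, against 187.1, 206.6 and 188.1 CPM in pent1 mock libraries. The groups lay far apart, with every ABA library more than 2 times any mock library. The log2 fold change was 1.41 (SE 0.13), with an adjusted p of 1.37e-05 by edgeR's test. Leaving out any 1 library gave adjusted p-values of 2.07e-06 to 0.000238. In WT it averaged 656.3 ± 12.7 CPM with ABA and 293.3 ± 11.1 CPM with mock (SD, n = 3 each), and the difference of the log2 responses, pent1 minus WT, was 0.25 (SE 0.14, edgeR adjusted p = 0.303).

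NbL15g23300 had the largest loss in CPM under the same conditions. It stood at 204.5, 219.9 and 219.3 CPM in pent1 ABA libraries, against 322.4, 360.1 and 443.4 CPM in pent1 mock libraries. The ABA libraries lay close together and, as the choice required, below every mock library, and the mock libraries were more widely spread. The log2 fold change was -0.81 (SE 0.14), with an adjusted p of 0.00241 by edgeR's test and of 0.0019 to 0.0162 without any 1 library. WT gave nearly the same levels, 215.9 ± 13.9 CPM with ABA and 372.8 ± 29.7 CPM with mock (SD, n = 3 each), and the difference of the log2 responses was -0.02 (SE 0.16, edgeR adjusted p = 0.969).

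A pair of low genes shows the calls at the other end, which each needed all 6 libraries. NbL15g17250 stood at 3.15, 2.97 and 4.46 CPM in pent1 ABA libraries (58 to 82 counts), against 2.11, 2.21 and 1.95 CPM in pent1 mock libraries (38 to 45 counts). ABA replicate 3 was the high one, and the groups did not overlap. Its log2 fold change was 0.75 (SE 0.22), with an adjusted p of 0.0407 by edgeR's test, and without any 1 library the adjusted p was 0.0514 to 0.126. In WT it averaged 6.44 ± 0.866 CPM with ABA and 1.98 ± 0.152 CPM with mock (SD, n = 3 each), a log2 fold change of 1.70 (SE 0.16, edgeR adjusted p = 5.44e-08). The difference of the log2 responses, -0.95 (SE 0.27), missed the threshold (edgeR adjusted p = 0.0555).

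NbL03g19730 stood at 1.73, 2.15 and 1.52 CPM in pent1 ABA libraries (28 to 42 counts), against 2.72, 3.59 and 2.82 CPM in pent1 mock libraries (55 to 70 counts). Mock replicate 2 was the high one, and the groups did not overlap. Its log2 fold change was -0.75 (SE 0.22), with an adjusted p of 0.0473 by edgeR's test, and without any 1 library the adjusted p was 0.0599 to 0.163. WT had 1.80 ± 0.268 CPM with ABA and 1.78 ± 0.219 CPM with mock (SD, n = 3 each), a log2 fold change of 0.02 (SE 0.22, edgeR adjusted p = 0.964). The difference of the log2 responses, -0.77 (SE 0.30), missed the threshold (edgeR adjusted p = 0.149).

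**Figure D2:**
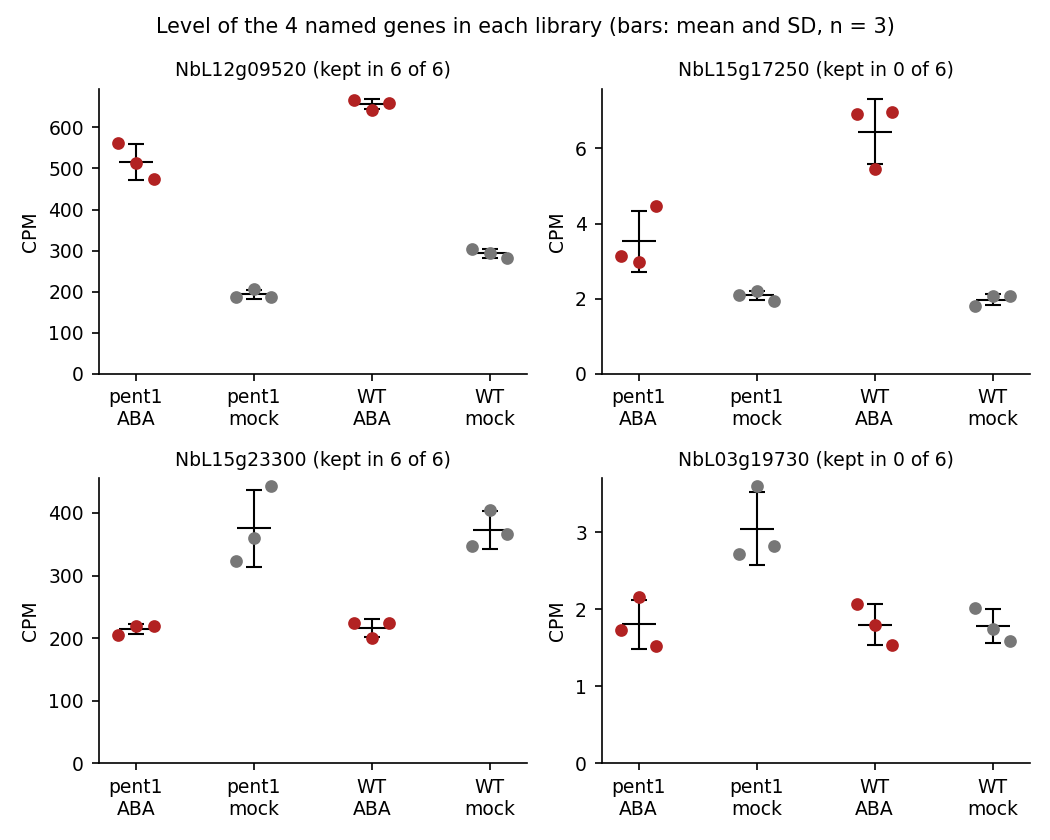
CPM (vertical axes, from 0) of the 4 named genes in each library of pent1 ABA, pent1 mock, WT ABA and WT mock. Points are libraries and bars are the mean ± SD (n = 3). The genes on the left were called without any single library (kept in 6 of 6), and those on the right only with all 6 libraries in the fit (kept in 0 of 6).

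Nearly all calls had separate groups. The genes were called on these same libraries, which favours separation, so the counts are a description. Every pent1 ABA library lay above every pent1 mock library for 5165 genes (15.6% of genes tested), of which 2400 were called higher, and every ABA library lay below every mock library for 4284 genes (12.9%), of which 1268 were called lower. The remaining calls, 2 higher and 8 lower, were made with overlapping groups. Separation alone therefore left more genes without a call than with one.

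How far the response rested on single libraries was measured by fitting the comparison again without each one. Leaving out pent1 ABA replicate 1 gave 1880 higher (5.6% of genes tested) and 825 lower genes (2.46%), and leaving out pent1 ABA replicate 2 gave 1733 higher (5.16%) and 669 lower (1.99%). Leaving out pent1 mock replicates 1, 2 and 3 gave 1691, 1965 and 1821 higher genes (5.05%, 5.86% and 5.43%) and 654, 1058 and 772 lower genes (1.95%, 3.15% and 2.3%). Pent1 ABA replicate 3 acted the other way: without it, 3326 genes were higher (9.9%) and 2685 lower (7.99%), although 1 library fewer was fitted. The share of increases among the calls was then 55.3%, against 65.3% with all libraries. The biological coefficient of variation, the spread between replicates beyond counting error, was 0.129 with all 6 libraries, 0.112 without ABA replicate 3 and 0.124 to 0.138 without any other.

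**Figure D3:**
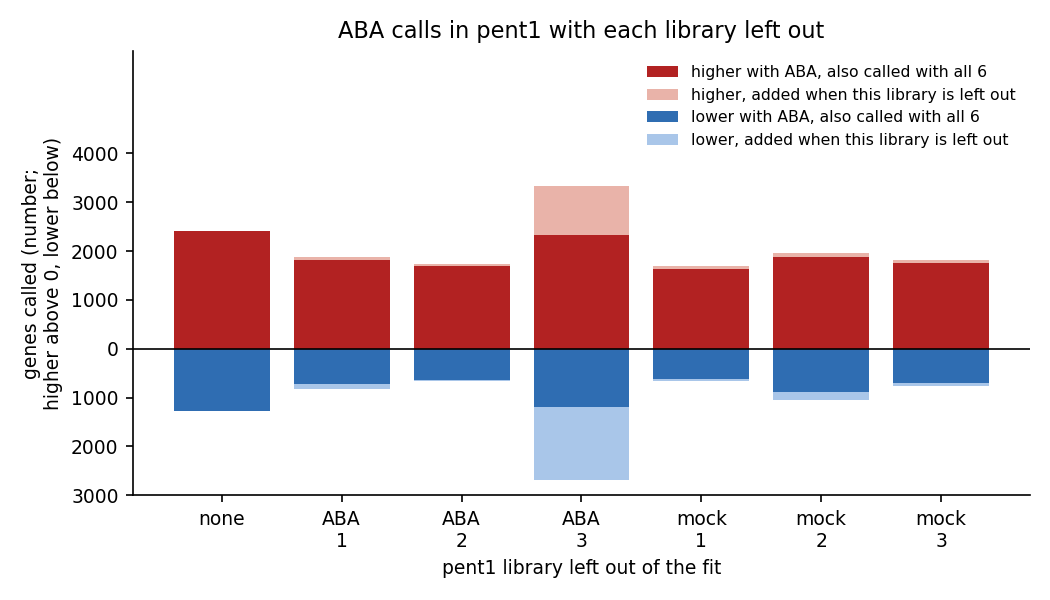
Number of genes called higher (above 0) and lower (below 0) with ABA in pent1 when no library or 1 of the 6 libraries is left out. Dark bars are genes also called with all 6 libraries and pale bars are added genes, which number 1001 higher and 1494 lower without ABA replicate 3 and at most 95 higher and 169 lower without any other library.

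Increases were kept in the fits without 1 library more often than decreases were. A fit with fewer replicates can lose a call near the threshold whichever library is left out. The median log2 change was 0.89 for increases and -0.74 for decreases, and the part of this difference in size was not tested. Of the 2402 genes that rose, 1459 (60.7%) were called in all 6 of the fits without 1 library, whereas of the 1276 genes that fell, 484 (37.9%) were. The fits without 1 library other than ABA replicate 3 kept 68.4% to 77.9% of the increases and 48.8% to 69.7% of the decreases. The genes called throughout differed in the size of the change more than in abundance. Their median log2 change was 1.13 among increases and -1.04 among decreases, against 0.58 and -0.62 for the calls lost in at least 1 fit, while the median average log2 CPM was 3.81 against 3.79 among increases and 3.27 against 3.28 among decreases. By size, 1.67% of the increases with a log2 change under 0.5 were called throughout, 54.7% of those of 0.5 to 1, 79% of those of 1 to 2 and 96.2% of those of 2 to 4. The same shares for decreases were 1.02%, 31.9%, 63.3% and 90.3%.

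WT offered a reading of these genes in libraries that had no part in choosing them. Among the 32536 genes tested in both genotypes, ABA was called to raise 6047 in WT (18.6%) and to lower 5737 (17.6%). The pent1 increases called throughout were raised in WT in 95.2% of cases (1381 of 1450), and those lost in at least 1 fit in 75.0% (700 of 933). The pent1 decreases called throughout were lowered in WT in 86.9% of cases (412 of 474), and those lost in at least 1 fit in 59.2% (458 of 773). All of these shares lay far above the shares of all genes, and opposite calls were few, with 1 of 1450, 5 of 933, 3 of 474 and 20 of 773. The medians of the WT log2 change were 1.31 and 0.57 for the increases and -1.04 and -0.40 for the decreases in the same order. The calls lost in a fit also had smaller changes in pent1, and the part of size in this difference was not tested.

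**Figure D4:**
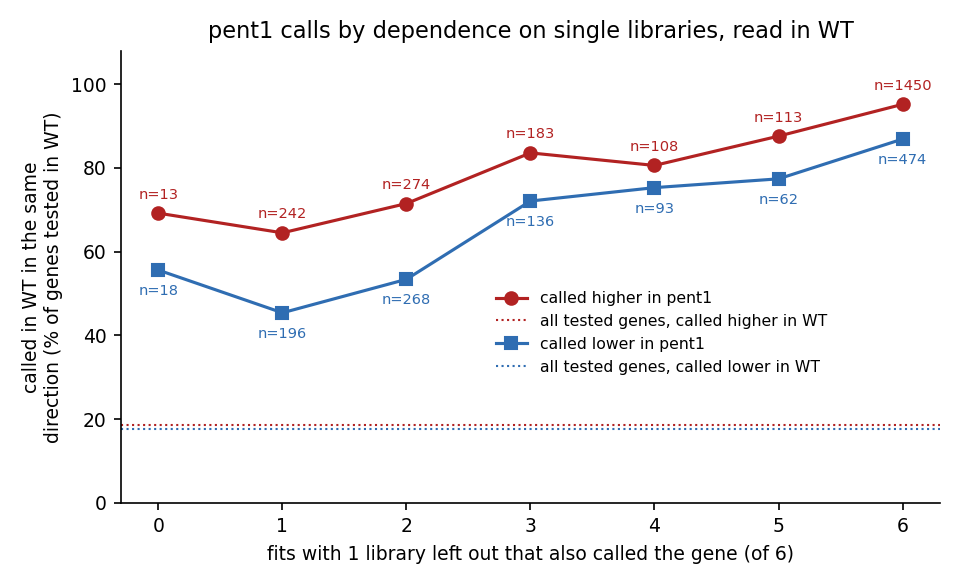
Share of pent1 calls that WT shared in direction (percent of genes tested in WT), by the number of fits without 1 library (0 to 6) that called the gene. Circles are genes that rose and squares genes that fell, n is the number of genes, and dotted lines are all genes tested. The shares at 6 of 6 are 95.2% and 86.9%, and those at 1 of 6 are 64.5% and 45.4%.

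Seen from the other list, the increases shared by both genotypes were 87.3% of the pent1 increases and 34.4% of the WT increases. The shared decreases were 69.8% of the pent1 decreases and 15.2% of the WT decreases. A WT gene without a call in pent1 is not shown to lack the response there. With the spread shared over all 12 libraries, pent1 had 3684 increases and 2522 decreases, against 2402 and 1276. The biological coefficient of variation was then 0.102, against 0.129 in pent1 alone. What part this spread had in the low shares of the WT lists was not tested. Agreement grew with the size of the pent1 change. Of the pent1 increases under 0.5, from 0.5 to 1, from 1 to 2 and from 2 to 4 on the log2 scale, 71.2%, 85.1%, 92.7% and 98.1% were called higher in WT, and all 64 increases of 4 or more that were tested in WT were. For decreases the shares were 55.3%, 66.0%, 83.1% and 98.1%, and the 3 of 4 or more in size that were tested in WT were all called lower.

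The genes added by leaving out ABA replicate 3 were read in WT in the same way. Of the 1001 added increases, 974 were tested in WT, where 317 (32.5%) were called higher and 103 (10.6%) lower, with a median WT log2 change of 0.12. Against all genes tested in both genotypes, the share called higher was above the 18.6% and the share called lower below the 17.6%. Of the 1494 added decreases, 1455 were tested in WT, where 224 (15.4%) were called lower and 217 (14.9%) higher, with a median of 0.01. For decreases, the share called lower was below the 17.6% of all genes, and the share called higher was below the 18.6%. The median log2 change of the added increases over pent1 mock was 0.57, 0.44 and 0.14 in ABA replicates 1, 2 and 3, and that of the added decreases was -0.66, -0.57 and -0.09. These genes were chosen as called without replicate 3 and not called with it, so the values of the 3 libraries are a description. The WT libraries had no part in the choice.

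The fits without one of the other libraries added few genes, 32 to 95 increases and 31 to 169 decreases. Of the added increases tested in WT, 60.3% to 87.2% were called higher there, and of the added decreases 31.4% to 66.7% were called lower, with the lowest of both without mock replicate 2. Over the whole list of calls, leaving out ABA replicate 3 lowered the share that WT shared in direction to 71.1% of increases and 39.6% of decreases, against 87.3% and 69.8% with all libraries. Leaving out any other library gave 90.0% to 93.8% of increases and 68.6% to 83.9% of decreases. In numbers, the calls shared with WT were 2334 increases and 1039 decreases without ABA replicate 3, and 2081 and 870 with all libraries.

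The size of the response was measured for genes chosen in pent1 alone. In each of 9 choices, 1 ABA and 1 mock library of pent1 were left out, genes were called on the other 4, and the log2 change in the called direction was averaged over the genes in the 2 left-out libraries and in WT. This avoids measuring the genes on the libraries that chose them. With ABA replicate 1 left out, genes that rose changed by a mean of 1.51 in the left-out pent1 libraries and by 1.69 in WT. With ABA replicate 2 left out the values were 1.55 in pent1 and 1.87 in WT, and with ABA replicate 3 left out they were 0.833 in pent1 and 1.08 in WT (1030 to 3165 genes). For genes that fell, the mean change in size was 0.937, 1.13 and 0.395 in pent1, and 1.06, 1.30 and 0.399 in WT (279 to 3078 genes).

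The WT change was the larger one in 9 of 9 choices for increases and in 8 of 9 for decreases. Over both directions the WT change was 1.17 times that of pent1 (SD 0.0498 over the 3 left-out ABA libraries, which gave 1.12, 1.20 and 1.22), with 1.19 for increases and 1.12 for decreases. The 9 choices share libraries and the lists overlap, so no test was made. The ratio rested on ABA replicate 3: with it removed from both the choice and the measurement, the ratio was 0.976, and WT was larger in 2 of 6 choices. In that case genes were chosen with 1 ABA library against 2 mock libraries, and the lone library was taken to vary like the others. Removing any other library left the ratio at 1.13 to 1.26, with WT larger in all 6 choices each time. The change in the libraries that chose the genes was larger than in those left out, with a mean of 1.43 against 1.14 over both directions. The 1.43 is edgeR's fitted fold change and the 1.14 a difference of log2 CPM with a prior count of 2. How much of the gap comes from the measure was not tested.

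**Figure D5:**
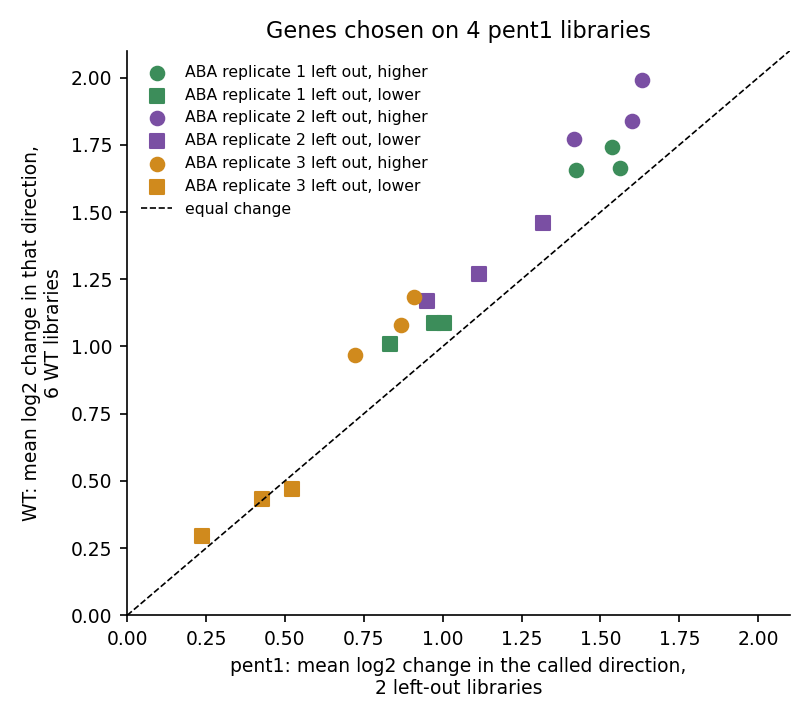
Mean log2 change with ABA in the called direction for genes chosen on 4 pent1 libraries, in the 2 left-out pent1 libraries (horizontal axis) and in WT (vertical axis). Each of the 9 choices gives a circle (genes that rose) and a square (genes that fell), coloured by the ABA library left out, and the dashed line marks equal change. All circles and 8 of 9 squares lie above the line, and the choices that leave out ABA replicate 3 have the smallest changes.

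A test of the difference between the ABA responses of the genotypes, fitted on all 12 libraries, called 1145 of 34026 genes (3.37%), with 1.2% of genes tested positive in pent1 minus WT and 2.17% negative. Of the 2402 genes that rose in pent1, 268 differed from WT (11.2%), 52 with a larger increase in pent1 than in WT and 216 with a smaller one. Of the 1274 genes that fell in pent1 and were tested, 119 differed (9.34%), 79 with a larger decrease in pent1 and 40 with a smaller one. Smaller responses were thus the majority among increases and larger ones among decreases. The pent1 libraries both chose these genes and enter the difference, which favours larger responses in pent1. Among increases called throughout, 34 were larger and 176 smaller, and among decreases called throughout, 24 were larger and 26 smaller. The excess of larger decreases thus lay in the decreases lost in at least 1 fit, with 55 larger and 14 smaller. The genotypes come in separate tables of counts, and an effect of genotype and one of table cannot be told apart.

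The calls were spread over all groups of gene IDs. By the first 5 characters of the ID, the share of genes that rose was 5.87% to 8.58%, and the share that fell was 2.88% to 4.76%, over 20 groups of 105 to 2097 genes. Genes next to each other in ID order were compared as well. After a gene that rose, the next ID rose in 11.4% of cases (202 of 1775), against 7.42% over all 24622 pairs tested, and fell in 2.93%, against 3.72% over all pairs. After a gene that fell, the next ID fell in 7.05% of cases (65 of 922), against 3.72% over all pairs, and rose in 7.27%, against 7.42% over all pairs. Whether neighbours in this order are near-identical copies that share reads was not tested, and no table used here places the IDs on the genome.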

How the data were processed

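RNA of whole seedlings was sequenced in 12 libraries, made with a strand-specific mRNA kit per the labels' protocols. The authors deposited raw read counts per gene, in 1 table per genotype. FastQC, cutadapt, STAR and DESeq2 were used, per the submitters' processing notes. Not given in the sources used here are the genome build and annotation, how reads were counted, whether by strand, and how reads with several matches were handled. The species is an allotetraploid, so a count for 1 gene copy may include reads of a near-identical one. Columns were assigned to samples by titles and descriptions. Replicate libraries of pent1 were kept apart, since their counts differed beyond sampling noise (chi-square 6.64 to 16.5 times its degrees of freedom over genes with 20 or more counts in a pair).

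ABA was compared with mock on the 6 pent1 libraries by edgeR's quasi-likelihood F-test (version 4.0.16, R 4.3.3) after TMM scaling and filterByExpr with a minimum count of 10, with robust dispersion. P-values were adjusted by Benjamini-Hochberg over all genes tested, with a threshold of 0.05. Standard errors are those implied by the F statistic. WT was fitted likewise on its own 6 libraries, and the difference of responses on all 12 with 4 group means. Changes in left-out and single libraries used log2 CPM with a prior count of 2 on TMM factors of all 12. The pent1 fit was checked on simulated counts with known fold changes, with the same spread for all genes and no library set apart. The fits without 1 library and the comparisons with WT were not checked in this way. Alternatives were other scaling factors and filters, DESeq2 1.42.0, limma-voom (limma 3.58.1) with and without library weights, other dispersion settings, a 12-library fit, the replicate number as a block, and leaving out each library.

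The comparison and the lists were chosen with earlier results of these data known. Genes were named by a rule. In each direction it takes the gene with the largest change in CPM among those called in the full fit and in all 6 fits without 1 library and with no overlap between the groups. It also takes, among calls with an average log2 CPM of at least 1, the one called in the fewest of these 6 fits, ties going to the largest log2 change. Lists of plant genes drawn up for this comparison went unused for want of a table that gives these IDs names.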

Additional observations from a re-analysis of the deposited data

Results flagged for a closer look

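The ABA response differed between the genotypes for part of the genes called in pent1, by the test of the difference on all 12 libraries. It was larger in pent1 than in WT for 131 of these genes and smaller for 256. The directions went apart, with 52 larger and 216 smaller among increases and 79 larger and 40 smaller among decreases. In all, 11.2% of the increases and 9.34% of the decreases differed, against 3.37% of all genes tested. The pent1 libraries both chose these genes and enter the difference, which favours larger responses in pent1. Most of all genes tested had no ABA call in pent1, so the shares are a description. An effect of genotype and one of the separate tables of counts cannot be told apart. None of the 4 named genes passed this test.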

How the results depend on the processing

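Calls of increases numbered 1691 to 3326 and calls of decreases 654 to 2685 over the fits without 1 library. At least 2-fold, the ranges were 908 to 1147 and 305 to 577. The WT to pent1 ratio of response size was 0.976 to 1.26 over these fits, with the value below 1 without pent1 ABA replicate 3. Otherwise the ratio was 1.13 to 1.18. The 12-library fit called 3684 higher and 2522 lower genes, with the spread shared with WT. Decreases numbered 2039 with library-size scaling alone and 2360 with limma-voom and library quality weights, which gave pent1 ABA replicate 3 the lowest weight (0.51) and ABA replicate 2 the highest (1.85). The other settings kept all counts within 1.5 times, with 3606 calls by limma-voom and 3607 by DESeq2. The quasi-likelihood setting planned as an alternative was the default of the edgeR version used, so the newer setting was run in its place after the data were seen, with 2400 higher and 1277 lower genes.

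Same-numbered ABA and mock libraries did not deviate together (correlations of deviations across genes of -0.07, -0.03 and 0.12 for numbers 1, 2 and 3), and only ABA replicate 3 correlated best with its own number, so the numbers were not taken to pair the samples. With the replicate number as a block, 2497 genes were higher and 1590 lower, 1020 and 398 of them at least 2-fold, and the ratio was 1.16 over the 3 choices possible. The block ended no call of the 4 named genes. NbL12g09520 and NbL15g23300 were called in all 18 alternatives. NbL15g17250 was lost in 11 (adjusted p 0.0508 to 0.126) and NbL03g19730 in 10 (0.0513 to 0.163), and no alternative turned a sign. The alternatives include the 6 fits without 1 library, by which all 4 genes were chosen. The calls kept or lost in those 6 fits were thus set by the choice.

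Changes of NbL15g17250 and NbL03g19730 rest on fewer than 100 counts per library. The p-values set the difference between groups against the spread between these libraries, which is estimated partly across genes.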
